A study of Homo sapiens with 40 samples.

Results

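OCI-Ly10 cells treated with JAK inhibitor I are the subject here, measured on 4 of the 40 arrays of a study of STAT3 and NF-kB signalling in the lymphoma lines OCI-Ly10 and OCI-Ly3. OCI-Ly10 is an established human line of the activated B cell-like (ABC) form of diffuse large B cell lymphoma. The 4 arrays were chosen by title: 2 after 3 h and 2 after 6 h of the inhibitor at 5 uM. On every array the Cy5 channel held RNA of treated cells and the Cy3 channel held RNA of OCI-Ly10 cells for which the labels name no treatment and no vehicle, so each value is a ratio of treated over control RNA and holds no level. Markers of the line's identity could therefore not be checked as levels, and the dyes were not swapped. Arrays of the same line under other agents serve for comparison. These are IL-6 at 50 ng/ml for 3 and 6 h (4 arrays), a doxycycline-induced (20 ng/ml) IkB super-repressor in the subline OCI-Ly10 iIkBsr for 3 and 6 h (1 array each), and STAT3 siRNA at 4 uM against no siRNA for 24 and 48 h (4 arrays).

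Janus kinases (JAKs) sit on cytokine receptors and, once a cytokine binds, phosphorylate STAT transcription factors, which then enter the nucleus. JAK inhibitor I is a small molecule that blocks the catalytic site of the kinases of this family. In ABC lymphoma, IL-6 and IL-10 made by the tumour cells can keep STAT3 active, and STAT3 and NF-kB act on overlapping genes. The inhibitor acts on proteins and not on an mRNA, so no transcript serves as a direct check that it worked. SOCS genes, CISH and PIM kinases are the usual transcriptional readouts of STAT activity.

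The inhibitor arrays measured between 4463 and 4487 of 4604 named genes. The ratios spread more widely at 6 h than at 3 h: the SD across the 4264 genes measured on all 4 arrays was 0.15 for the mean of the 3 h arrays and 0.23 for the mean of the 6 h arrays. The first replicate at 6 h stood apart. Across those genes it correlated with the other 3 arrays at Pearson's r of 0.116 to 0.306, while the other 3 correlated among themselves at 0.434 to 0.525. On it 33 genes had a log2 ratio above 1, against 2 genes on each of the other arrays. Below -1 lay 19 genes on the second 6 h replicate, against 9 on the first and 4 and 3 on the 3 h arrays. Main counts or list medians are therefore given with and without the first 6 h replicate. Both arrays of replicate 1 carry neighbouring array identifiers, as do both of replicate 2, so the replicate number and the identifier run are the same split.

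Averaged over 3 and 6 h, 147 of 4480 genes tested passed an adjusted p of 0.05 (3.28%), 50 of them higher (1.12%) and 97 lower (2.17%) in treated cells. A stress programme led the higher genes: DDIT3, ATF4 and ATF5, which encode transcription factors of the integrated stress response, and a series of amino acid transporter and tRNA synthetase genes. The lower genes were led by DUSP2, MNDA, CCL4, GPR183 and BCL3. Of the 147 genes, 138 had 1 sign on every array that measured them. In the text, rose, fell and called refer to this threshold in limma's test of the mean log2 ratio, each gene's value is followed by its standard error, and log2 holds under the assumption that the deposited logarithm has base 2. Without the first 6 h replicate, 161 genes were called (34 higher, 127 lower). Leaving out any other array gave 45 to 88 calls, and without the second 6 h replicate the split turned to 53 higher and 35 lower. In all, 33 calls held whichever array was left out, 10 higher and 23 lower, and all 33 also held when the identifier run was fitted as a random block, a fit that called 77 genes. The 10 were DDIT3, ATF4, ATF5, SLC3A2, SLC1A4, MTHFD2, GARS1, WARS1, SOCS5 and XBP1. The 23 were DUSP2, MNDA, CCL4, GPR183, BCL3, HSP90AA1, PNP, DHRS9, CCND2, PHLDA1, MIR155HG, LDHA, UCK2, SQLE, SRSF7, DDX21, CCT3, CSE1L, COCH, BTG3, COG8, KIAA0753 and SS18L2. Every other call named below was lost, or could not be tested, in at least 1 of the 4 fits that left out an array. These fits also drew on arrays of the other experiments for the spread. Fitted on the 4 inhibitor arrays alone, 12 genes were called. Among the 33, ATF5 (adjusted p = 0.115), SLC3A2 (0.149) and CCL4 (0.0678) were examples not called by that fit.

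**Figure D1:**
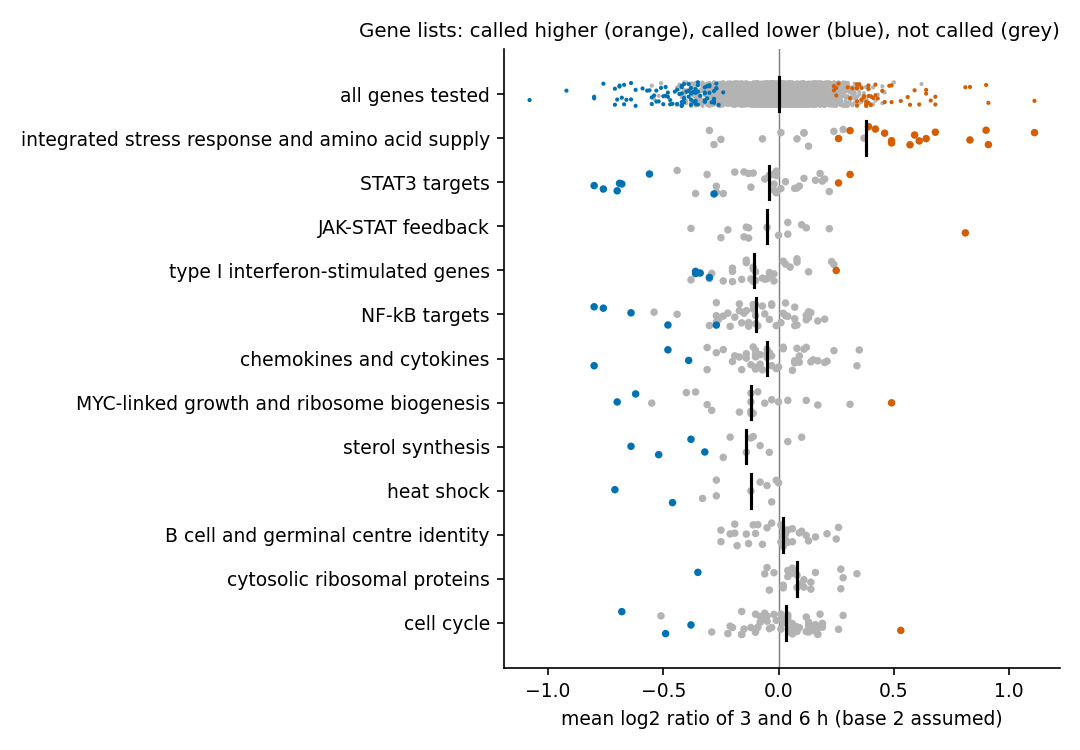
Each point is 1 gene at its mean log2 ratio of 3 and 6 h on the horizontal axis, for all 4480 genes tested and for 12 gene lists on the vertical axis; black bars are medians, and points are spread vertically only to separate them. The stress response list has a median of 0.38 with 16 called genes, all higher, while the called STAT3 targets lie mostly on the lower side.

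The integrated stress response is a shared answer to amino acid shortage, unfolded protein and other insults. Kinases that sense these slow general translation, and the mRNA of ATF4 is then translated more, after which ATF4 switches on genes for amino acid uptake, synthesis and tRNA charging. Of 28 tested genes of this response and of amino acid supply, 16 rose (57.1%, against 1.12% of all genes) and 0 fell. Across the list the median was 0.38, against 0.00 over all genes tested. The list median was above 0 on each array, at 0.32 and 0.29 on the 3 h arrays and at 0.41 and 0.36 on the 6 h arrays. The size of several members was set largely by 1 array: of the 15 called members measured on all 4 arrays, 9 were highest on the first 6 h replicate. Without that array 9 members were called. Between 7 and 13 were called when another array was left out, 13 with the identifier run as a block and 2 when the 4 inhibitor arrays were fitted alone.

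DDIT3 (CHOP) encodes the transcription factor that links lasting stress to cell death. It read 1.15 and 1.22 at 3 h and 1.22 and 0.85 at 6 h in replicates 1 and 2, the order used for all pairs of values below. All 4 arrays were high, the times overlapped, and the mean of 1.11 ± 0.08 (adjusted p = 1.57e-07), a 2.16-fold higher ratio, was the largest rise of the experiment. ATF4 itself read 0.80 and 0.83 at 3 h and 1.22 and 0.73 at 6 h. Its mean was 0.90 ± 0.14 (adjusted p = 0.000805), again with both times overlapping. The related factor ATF5 read 0.49 and 0.45 at 3 h but 1.87 and 0.81 at 6 h (mean 0.91 ± 0.12, adjusted p = 0.000199), so that both 6 h arrays lay above both 3 h arrays. Calls for these 3 genes held whichever array was left out.

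Genes for amino acid transport rose with them. SLC3A2, the heavy chain shared by several amino acid exchangers, read 0.46 and 0.44 at 3 h and 1.40 and 0.42 at 6 h. Its light chain SLC7A5 read 0.33 and 0.50, then 1.30 and 0.46. In both genes 3 arrays were close together and the first 6 h replicate stood far above them; SLC3A2 kept its call without any 1 array (mean 0.68 ± 0.12, adjusted p = 0.00195), whereas SLC7A5 (mean 0.64 ± 0.14, adjusted p = 0.0141) lost it without that replicate or without either 3 h array, and reached an adjusted p of 0.0505 with the run as a block. SLC1A4, a transporter of small neutral amino acids, read 0.57 and 0.55 at 3 h and 1.00 and 0.33 at 6 h (mean 0.61 ± 0.10, adjusted p = 0.0018). SLC38A2, a glutamine transporter, lay just outside the threshold at 0.37 ± 0.10 (adjusted p = 0.0541).

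Transfer RNA synthetases, which load amino acids onto tRNA, moved the same way in the members called. AARS1, for alanine, read 0.26 and 0.21 at 3 h and 1.42 on the 1 array of 6 h that measured it; its second 6 h value is missing, and its mean of 0.83 ± 0.15 (adjusted p = 0.00319) averages the 2 times. WARS1, for tryptophan and also an interferon-gamma target, was counted in the interferon-gamma list and not in the stress list. It read 0.39 and 0.29 at 3 h and 1.20 and 0.70 at 6 h (mean 0.64 ± 0.09, adjusted p = 0.00041). GARS1 (glycine) was at 0.46 ± 0.08 (adjusted p = 0.00191), with its 3 probes between -0.18 and 0.82, and NARS1 (asparagine) at 0.39 ± 0.08 (adjusted p = 0.0106). MTHFD2, a mitochondrial enzyme of one-carbon metabolism, was even across arrays, at 0.60 and 0.41 and then 0.65 and 0.68 (mean 0.59 ± 0.10, adjusted p = 0.00166). SHMT2, its partner in serine use, EIF4EBP1, an inhibitor of cap-dependent translation, TRIB3, a pseudokinase that feeds back on the response, and GADD45A, a growth-arrest gene, also rose, with means between 0.42 and 0.57. The last 4 genes each lost the call when the first 6 h replicate was left out.

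Not every known target moved. ASNS, asparagine synthetase and a classic ATF4 target, read -0.05 and 0.13 at 3 h and -0.25 and -0.12 at 6 h (mean -0.07 ± 0.10, adjusted p = 0.814). ATF3 was at 0.08 ± 0.12 (adjusted p = 0.818). PPP1R15A, the phosphatase subunit that ends the response, read -0.20 and -0.17, then -0.26 and -0.55 (mean -0.30 ± 0.12, adjusted p = 0.227). Of all 28 genes, 24 had a mean above 0, and ASNS, ALDH18A1, CTH and PPP1R15A lay below it.

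**Figure D2:**
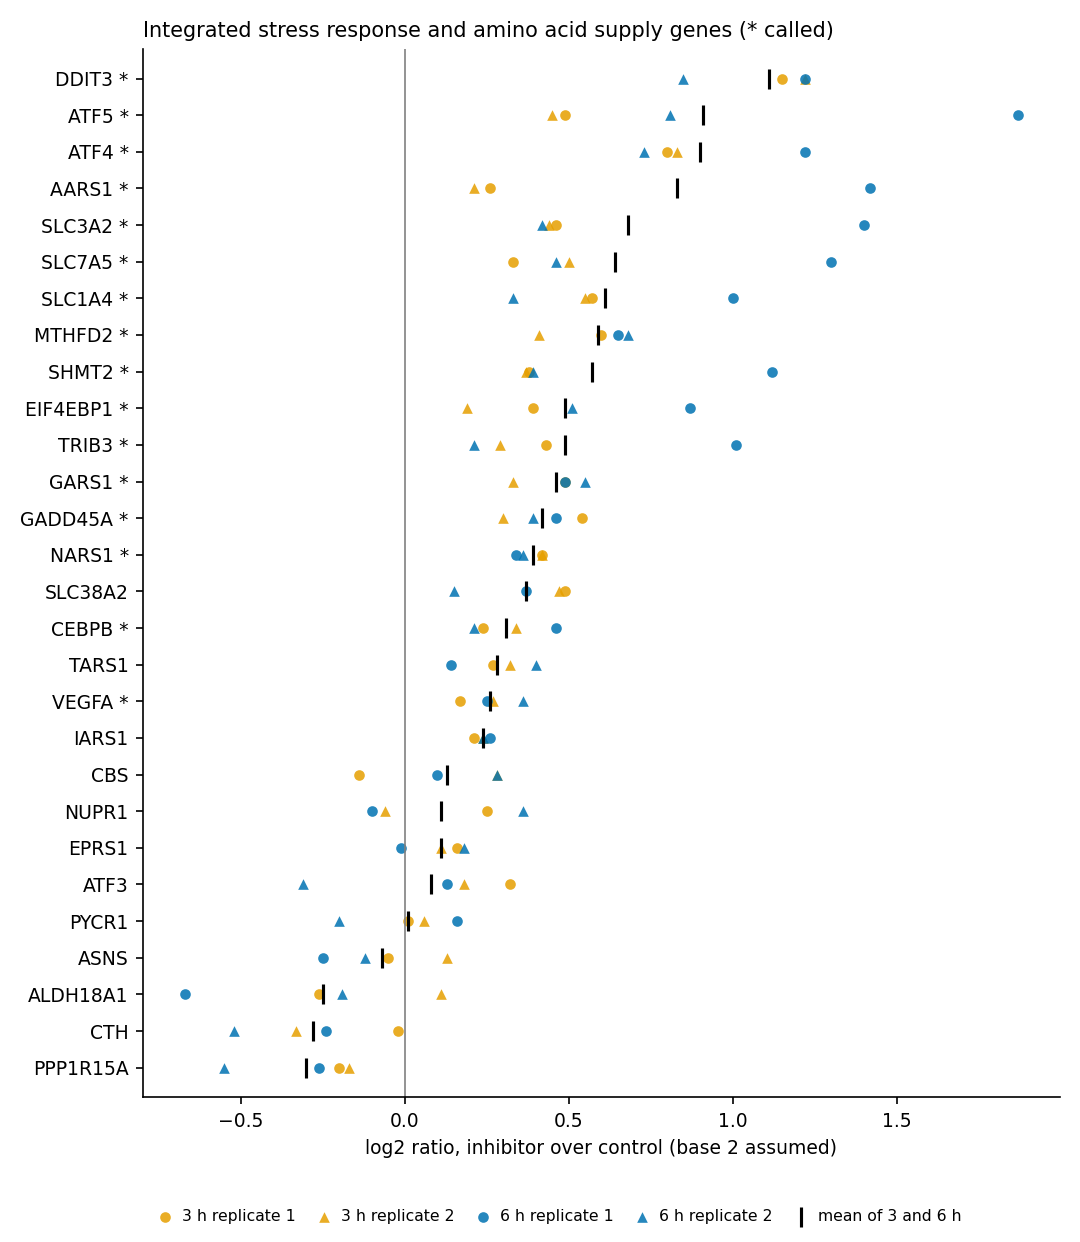
The log2 ratio of inhibitor over control (horizontal axis) is plotted for the 28 tested genes of the integrated stress response and amino acid supply, with 1 point per array, coloured by time and shaped by replicate, and a bar at the mean of both times; stars mark called genes. DDIT3 and ATF4 are high on all 4 arrays, whereas ATF5, AARS1, SLC3A2 and SLC7A5 have 1 far higher point, the first 6 h replicate.

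ATF4 binds DNA as a dimer with C/EBP factors at a composite element, and TGATGNAA, searched on both strands, served as its core. RefSeq promoters (GRCh38.p14, 250 bases before to 50 after the gene start) were at hand for 22 of the 28 genes, and 7 of them held the core (31.8%), against 2.3% of the promoters of all genes tested and 3.67% of all 27305 promoters in the table. Among the 12 called genes with a promoter, 3 held it (25%), so a match did not mark the called genes within the list. The list was chosen as genes of this response, so its share describes the list and not the inhibitor's effect. Of all genes that rose, 3 of 38 with a promoter held the core (7.89%). The 3 promoters are shown because they carry the core in genes that rose, with the match in capitals on either strand.
AARS1, chr16:70289457-70289756, minus strand: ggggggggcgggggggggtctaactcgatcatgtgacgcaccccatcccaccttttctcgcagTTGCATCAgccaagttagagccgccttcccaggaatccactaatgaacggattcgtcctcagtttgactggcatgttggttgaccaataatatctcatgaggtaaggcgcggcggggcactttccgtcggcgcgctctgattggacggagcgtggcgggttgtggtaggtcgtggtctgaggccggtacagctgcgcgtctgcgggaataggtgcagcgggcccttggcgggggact
SLC3A2, chr11:62881449-62881748, plus strand: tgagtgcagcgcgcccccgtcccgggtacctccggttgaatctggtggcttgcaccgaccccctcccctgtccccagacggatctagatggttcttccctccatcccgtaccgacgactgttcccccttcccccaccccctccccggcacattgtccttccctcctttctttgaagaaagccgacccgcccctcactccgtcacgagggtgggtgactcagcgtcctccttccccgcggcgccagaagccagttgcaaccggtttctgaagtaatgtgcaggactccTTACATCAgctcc
NARS1, chr18:57621787-57622086, minus strand: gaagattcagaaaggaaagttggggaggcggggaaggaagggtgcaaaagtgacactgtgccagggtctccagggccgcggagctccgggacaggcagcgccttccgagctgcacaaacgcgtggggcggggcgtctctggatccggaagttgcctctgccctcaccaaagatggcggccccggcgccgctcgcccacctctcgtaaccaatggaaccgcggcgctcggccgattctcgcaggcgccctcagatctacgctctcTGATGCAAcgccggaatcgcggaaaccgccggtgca
The match begins 187 bases before the gene start in AARS1 and lies after the start in SLC3A2 and NARS1.

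Beside the stress list, SOCS5 rose evenly. It encodes a suppressor of cytokine signalling that is better known for acting on IL-4 and EGF receptors than as a STAT3 target. It read 0.77 and 0.96 at 3 h and 0.76 and 0.74 at 6 h (mean 0.81 ± 0.08, adjusted p = 1.47e-05), and its 3 probes ranged from 0.22 to 1.34. XBP1, the transcription factor of the unfolded protein response and of plasma cells, read 0.66 and 0.53, then 0.97 and 0.48 (mean 0.66 ± 0.09, adjusted p = 0.000425). CD79B, a signalling chain of the B cell receptor, read 0.34 and 0.33, then 1.52 and 0.54 (mean 0.68 ± 0.13, adjusted p = 0.00392); its 12 probes ran from -0.14 to 1.10, and its call was lost without the first 6 h replicate. The lists these genes come from did not follow them. Only 1 of 15 JAK-STAT feedback genes (6.67%), 1 of 21 plasma cell genes (4.76%) and 1 of 31 B cell receptor genes (3.23%) rose. Over all genes 1.12% rose. In each of these lists 0 fell.

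Of the usual feedback readouts of STAT activity, SOCS1, SOCS2, SOCS3 and CISH did not pass the test. SOCS3 read 0.53 and 0.15 at 3 h and -0.09 and 0.27 at 6 h (mean 0.22 ± 0.13, adjusted p = 0.44), SOCS1 averaged -0.14 ± 0.07 (0.345), SOCS2 -0.25 ± 0.13 (0.339) and CISH -0.13 ± 0.13 (0.67). PTPN1, a phosphatase of JAKs, was below 0 on every array at -0.22 ± 0.10 (0.286). The PIM kinase genes, survival kinases induced by STATs, split: PIM1 averaged 0.20 ± 0.15 (0.577), PIM2 read -0.54 and -0.65 at 3 h but 0.52 and -1.09 at 6 h (mean -0.44 ± 0.17, 0.194), and PIM3 read -0.65 and -0.78, then 0.08 and -0.57 (mean -0.48 ± 0.09, adjusted p = 0.00373). In PIM2 and PIM3 the first 6 h replicate was the only array above 0, and PIM3 lost its call without either second replicate. Of the kinases, JAK1 averaged -0.27 ± 0.12 (0.247) and JAK2 0.21 ± 0.11 (0.367), and STAT5A was at -0.13 ± 0.10 (0.583). JAK3 and TYK2 were not analysed here. IL6, at 0.07 ± 0.15 (0.906), and IL10, at -0.27 ± 0.15 (0.393), the cytokine genes that feed the pathway, were not called.

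Of 39 STAT3 targets tested, 7 fell (17.9%, against 2.17% of all genes) and 2 rose (5.13%, against 1.12%). The list median was -0.04. In all, 26 of the 39 had a mean below 0, and 13 were below 0 on all 4 arrays and 5 above it, against 685 below and 635 above of 4264 among all genes. The 7 were GPR183, BCL3, MYC, STAT3, CCND2, BATF and MCL1, and the 2 were CEBPB and VEGFA, which also belong to the stress list. With the run as a block 5 fell and 0 rose, fitted alone 2 fell, and with 1 array left out 3 to 8 fell (8 without the first 6 h replicate). GPR183, BCL3 and CCND2 kept their calls whichever array was left out.

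GPR183 (EBI2) encodes the receptor that guides activated B cells within lymphoid tissue. It read -0.81 and -0.72 at 3 h and -1.0 and -0.66 at 6 h (mean -0.80 ± 0.13, adjusted p = 0.00166), with the 2 times overlapping. BCL3, an atypical IkB protein that acts in the nucleus with NF-kB p50 and p52, read -1.0 and -0.92, then -0.54 and -0.58 (mean -0.76 ± 0.09, adjusted p = 0.000123), so that both 3 h arrays were the lower ones. CCND2, cyclin D2, read -0.65 and -0.55, then -1.03 and -0.49 (mean -0.68 ± 0.10, adjusted p = 0.000834).

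MYC read -0.73 and -0.94 at 3 h and -0.41 and -0.71 at 6 h (mean -0.70 ± 0.16, adjusted p = 0.0211). STAT3 itself, which STAT3 can induce, read -0.51 and -0.81, then -0.25 and -1.19 (mean -0.69 ± 0.17, adjusted p = 0.0261). Every array was below 0 for both genes, yet both lost the call when either 3 h array or the second 6 h replicate was left out, and STAT3 also lost it with the run as a block (0.0783). BATF, an AP-1 family factor of activated lymphocytes, averaged -0.56 ± 0.10 (adjusted p = 0.00467), with its 5 probes between -0.93 and 0.26. MCL1, a BCL2-family survival gene, was at -0.28 ± 0.07 (adjusted p = 0.0326), a call lost with the run as a block and without either 3 h array or the second 6 h replicate. Also on this list, JUNB, at -0.13 ± 0.06 (0.339), and BCL6, at -0.19 ± 0.07 (0.194), were not called. The STAT core TTCNNNGAA, searched on both strands, was in 0 of the 5 called STAT3 targets with a promoter in the table, in 4 of the 31 tested ones with a promoter (12.9%), in 7 of 83 genes that fell (8.43%), in 6.72% of the promoters of all genes tested and in 7.88% of the whole table; sites outside this window were not searched.

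Outside the STAT3 list, DUSP2 fell most. It encodes a nuclear phosphatase of MAP kinases and read -1.35 and -1.45 at 3 h and -0.65 and -0.87 at 6 h (mean -1.08 ± 0.09, adjusted p = 8.03e-07). The 3 h arrays were again the lower pair, and the times did not overlap. MNDA, an interferon-inducible nuclear gene of myeloid cells and some B cells, showed the other order, at -0.55 and -0.63, then -1.35 and -1.13 (mean -0.92 ± 0.12, adjusted p = 0.000174). It was the 1 gene to fall among 16 tested myeloid markers (6.25%, against 2.17% of all genes), and 0 rose. DHRS9, a retinol dehydrogenase, read -0.47 and -0.26, then -1.31 and -0.73 (mean -0.69 ± 0.09, adjusted p = 0.000199). PHLDA1, a gene induced by MAP kinase signalling, averaged -0.66 ± 0.10 (adjusted p = 0.000805). In the list of MAP kinase phosphatases and feedback genes, 15 were tested. DUSP2 and PHLDA1 fell (13.3%, against 2.17% of all genes). RGS1 and RGS2, which dampen signals of G protein-coupled receptors, rose (13.3%, against 1.12%). RGS2 averaged 0.43 ± 0.09 (adjusted p = 0.0125) and RGS1 0.39 ± 0.10 (adjusted p = 0.0346). The call of RGS2 was lost without either second replicate. RGS1 lost its call in each fit that left out 1 array and with the run as a block (0.083).

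NF-kB targets fell in 5 of 51 tested (9.8%, against 2.17% of all genes) and rose in 0, with a list median of -0.10. This median was -0.17 without the first 6 h replicate and -0.12 to -0.04 without 1 of the other arrays. Of the list, 3 fell without either 3 h array or without the second 6 h replicate, 4 with the run as a block and 2 when the inhibitor arrays were fitted alone. The 5 were CCL4, BCL3, MIR155HG, CCL3 and BCL2A1. CCL4, a chemokine for T cells and monocytes, read -1.05 and -1.41 at 3 h and -0.17 and -0.56 at 6 h (mean -0.80 ± 0.10, adjusted p = 0.000183), with its 8 probes between -1.28 and -0.30. CCL3, its neighbour and relative, read -0.76 and -0.85, then 0.18 and -0.48 (mean -0.48 ± 0.11, adjusted p = 0.0165). Both were lower at 3 h than at 6 h on every array. CCL3 lost its call when either 3 h array or the second 6 h replicate was left out. The genes that encode the brakes of NF-kB were not called: NFKBIA (IkB alpha) averaged -0.04 ± 0.13 (0.949) and TNFAIP3 (A20) -0.09 ± 0.12 (0.811). BCL2A1, a survival gene, was at -0.27 ± 0.07 (adjusted p = 0.0396) and lost its call in each fit that left out 1 array. Of 49 chemokine and cytokine genes, CCL4, CCL3 and IL12A fell (6.12%, against 2.17% of all genes) and 0 rose.

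MIR155HG, the host transcript of a microRNA that is abundant in ABC lymphoma, was even across the arrays. It read -0.60 and -0.65 at 3 h and -0.58 and -0.72 at 6 h (mean -0.64 ± 0.08, adjusted p = 0.000123), and its call held whichever array was left out, although its 4 probes ranged from -1.12 to -0.03. The mature microRNA made from it is shown from RefSeq (GRCh38.p14, chr21:25573983-25574006, plus strand), with the seed, bases 2 to 8, in capitals.
hsa-miR-155-5p: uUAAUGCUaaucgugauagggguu
The arrays measured the host transcript and not this product.

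Type I interferon-stimulated genes, whose promoters are bound by a complex of STAT proteins and IRF9 that acts below the JAKs, had small ratios, mostly below 0. Of 36 tested, 4 fell (11.1%, against 2.17% of all genes) and 1 rose (2.78%, against 1.12%), with a list median of -0.10. The 4 were MX1, IRF9, PARP9 and ISG15, and ISG20 rose. The median was -0.07 without the first 6 h replicate and -0.11 to -0.10 without 1 of the other arrays. Of the 35 measured on all 4 arrays, 14 were below 0 on each, against 685 of 4264 among all genes. MX1, an antiviral GTPase, read -0.36 and -0.32 at 3 h and -0.43 and -0.35 at 6 h (mean -0.36 ± 0.08, adjusted p = 0.0197). IRF9 read -0.38 and -0.26, then -0.46 and -0.34 (mean -0.36 ± 0.08, adjusted p = 0.0211). Both genes lay within a narrow band, and ISG15, a ubiquitin-like antiviral modifier, averaged -0.30 ± 0.08 (adjusted p = 0.0366). MX1 was also called lower with IL-6, at -0.39 (adjusted p = 0.0201). Of 34 genes of the list tested against IL-6, 0 were lower with the inhibitor and 1 was higher, with a median difference of -0.02. MX1, IRF9, ISG15 and ISG20 lost their calls in each of the 4 fits that left out 1 array. PARP9 lost its call in each except the fit without the first 6 h replicate. With the run as a block 1 gene of the list fell and 0 rose. In the list of 23 interferon-gamma and class I presentation genes, WARS1 rose (4.35%, against 1.12% of all genes) and 0 fell. Of 11 class II genes, HLA-DMB rose (9.09%, against 1.12% of all genes), at 0.24 ± 0.07 (adjusted p = 0.0498), and 0 fell. HLA-DMB was at 0.02 once the mean of the other 5 experiments was subtracted.

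The interferon response element was searched on both strands as a pair of GAAA blocks with any 2 bases between them. It was in 19 of the 31 interferon-stimulated genes with a promoter (61.3%), in 3 of the 5 called ones, in 4.14% of the promoters of all genes tested and in 3.65% of the whole table. The promoters of MX1 and ISG15 are shown as members that fell and carry it, with the match in capitals; in ISG15 the capitals are 2 overlapping matches.
MX1, chr21:41420308-41420607, plus strand: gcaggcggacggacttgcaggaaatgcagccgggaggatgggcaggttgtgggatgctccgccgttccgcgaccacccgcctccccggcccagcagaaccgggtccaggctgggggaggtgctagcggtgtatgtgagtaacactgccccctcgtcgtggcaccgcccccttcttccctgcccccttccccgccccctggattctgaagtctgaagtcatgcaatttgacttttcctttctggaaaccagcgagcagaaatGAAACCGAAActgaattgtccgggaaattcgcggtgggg
ISG15, chr1:1013247-1013546, plus strand: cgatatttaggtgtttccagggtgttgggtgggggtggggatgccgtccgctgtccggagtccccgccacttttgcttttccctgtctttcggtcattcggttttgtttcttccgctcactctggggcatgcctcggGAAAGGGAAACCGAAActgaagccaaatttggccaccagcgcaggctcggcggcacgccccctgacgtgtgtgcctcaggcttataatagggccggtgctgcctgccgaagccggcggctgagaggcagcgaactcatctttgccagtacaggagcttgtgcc
In MX1 the match lies just after the gene start, and in ISG15 the first begins 113 bases before it.

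HSP90AA1, the inducible cytosolic chaperone HSP90, read -0.26 and -0.42 at 3 h and -1.0 and -1.15 at 6 h (mean -0.71 ± 0.09, adjusted p = 0.000131). All 11 heat shock genes tested had a mean below 0. Of these, 2 fell (18.2%, against 2.17% of all genes), HSP90AA1 and its co-chaperone FKBP4. LDHA, lactate dehydrogenase, read -0.31 and -0.22, then -0.75 and -1.19 (mean -0.62 ± 0.10, adjusted p = 0.00116). In its list of 32 glycolysis and hypoxia genes 2 fell (6.25%, against 2.17% of all genes) and 1 rose (3.12%, against 1.12%), with a median of 0.02. PNP, purine nucleoside phosphorylase, read -0.53 and -0.43, then -0.90 and -0.98 (mean -0.71 ± 0.08, adjusted p = 4.79e-05). In each of these 3 genes both 6 h arrays lay below both 3 h arrays.

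Sterol and fatty acid synthesis was lower in 4 of 13 tested genes (IDI1, SQLE, SCD and SC5D; 30.8%, against 2.17% of all genes), and 0 rose; the list median was -0.14. Of the list, 1 gene fell without the first 3 h replicate, 2 without the second, 3 without either 6 h array, 2 with the run as a block and 0 when the inhibitor arrays were fitted alone. SC5D was lost in all 4 fits that left out an array, and IDI1 without the first 3 h replicate. IDI1, an isomerase early in the isoprenoid route, read -0.70 and -0.37 at 3 h and -1.27 and -0.21 at 6 h (mean -0.64 ± 0.12, adjusted p = 0.00403). SQLE, squalene epoxidase, averaged -0.52 ± 0.09 (adjusted p = 0.00166) and was called whichever array was left out, whereas SCD, the stearoyl-CoA desaturase, at -0.38 ± 0.08 (adjusted p = 0.0138), was not called without either 3 h array or the second 6 h replicate. Among 22 MYC-linked growth genes, 2 fell (9.09%, against 2.17% of all genes) and 1 rose (4.55%, against 1.12%), with a median of -0.12. Of 62 cell cycle genes, CCND2, POLA1 and CDC6 fell (4.84%, against 2.17% of all genes) and PLK1 rose (1.61%, against 1.12%). PLK1, a mitotic kinase, read 0.27 and 0.04 at 3 h and 1.61 and 0.20 at 6 h, and its call (mean 0.53 ± 0.14, adjusted p = 0.0424) rested on the first 6 h replicate. Among 25 cytosolic ribosomal protein genes, RPL11 fell (4%, against 2.17% of all genes) and 0 rose. Of 33 genes of B cell and germinal centre identity and of 24 T and NK cell markers, 0 rose and 0 fell; PRDM1, the switch to plasma cells, averaged -0.24 ± 0.13 (0.377).

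**Figure D3:**
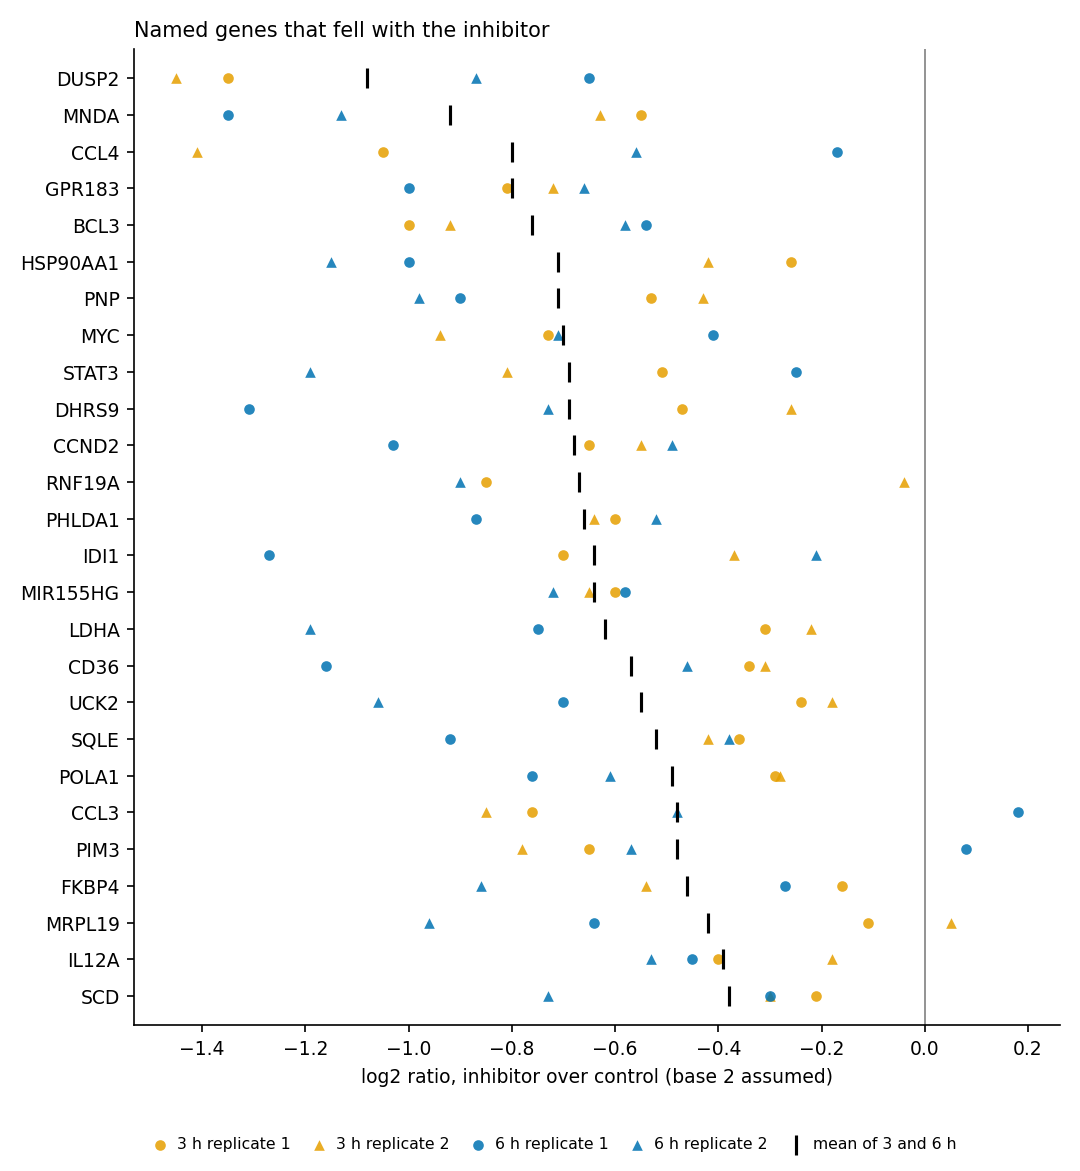
Named genes that fell are plotted by their log2 ratio of inhibitor over control (horizontal axis), with 1 point per array, coloured by time and shaped by replicate, and a bar at the mean of both times. DUSP2, CCL4 and BCL3 have their lowest points at 3 h, MNDA, HSP90AA1, PNP and LDHA at 6 h, and MIR155HG has all 4 points close together.

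The design also compares 3 h with 6 h of treatment. At 3 h alone 9 of 4368 genes were called (0.206%), 2 higher and 7 lower, and at 6 h alone 145 of 4393 (3.3%), 38 higher and 107 lower (2.44%). The 3 h calls were DDIT3 and SOCS5, higher, and BCL3, CCL3, CCL4, DUSP2, ELF3, MIR155HG and PIM3, lower; 5 of the 9 were also called at 6 h. ELF3, an epithelial-type ETS factor, read -1.19 and -1.02 at 3 h and -0.30 and -0.17 at 6 h. Of the 142 genes called at 6 h and tested at 3 h, 136 had the same sign at 3 h. Of the stress list, 1 of 28 tested was called at 3 h and 11 of 27 at 6 h, all higher. Over all genes tested, 0.0458% were called higher at 3 h and 0.865% at 6 h. The medians of the stress list were close, at 0.29 at 3 h and 0.33 at 6 h. The 6 h calls changed with the array left out: leaving out the first replicate gave 89 calls (9 higher, 80 lower), leaving out the second gave 91 (68 higher, 23 lower), and the inhibitor arrays fitted alone gave 0.

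Tested directly, the change from 3 to 6 h gave 0 of 4480 calls in limma (0%), with 170 genes at an unadjusted p under 0.05 and a smallest adjusted p of 0.542. In simulated data with known differences 69% of differences of 1 and 21% of differences of 0.5 were called by this test. Differences of the latter size were thus mostly missed with 2 arrays per time. The simulated noise was independent between arrays, with the same spread on every array of a gene. It had no wider spread at 6 h and no array that stood apart, so these shares may not hold for the measured arrays. The genes with the smallest unadjusted p were NENF, a secreted heme-binding protein, CCL4 and TYMP, thymidine phosphorylase, on the side higher at 6 h. NENF differed by 0.81 ± 0.19, CCL4 by 0.87 ± 0.21 and TYMP by 0.62 ± 0.15. On the other side were UCK2, a uridine kinase (-0.67 ± 0.16), HSP90AA1 (-0.73 ± 0.18) and MRPL19, a mitochondrial ribosomal protein (-0.77 ± 0.20). All 6 had an adjusted p of 0.542. JUNB, an immediate-early AP-1 gene, read -0.44 and -0.30 at 3 h and 0.19 and 0.04 at 6 h, a difference of 0.49 ± 0.13 with the same adjusted p. Across the 4264 genes the means of the 2 times correlated at Pearson's r of 0.526 and Spearman's rho of 0.504, a description across genes, which are not independent, from arrays that share a cell line, a dye order and possibly a control RNA.

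**Figure D4:**
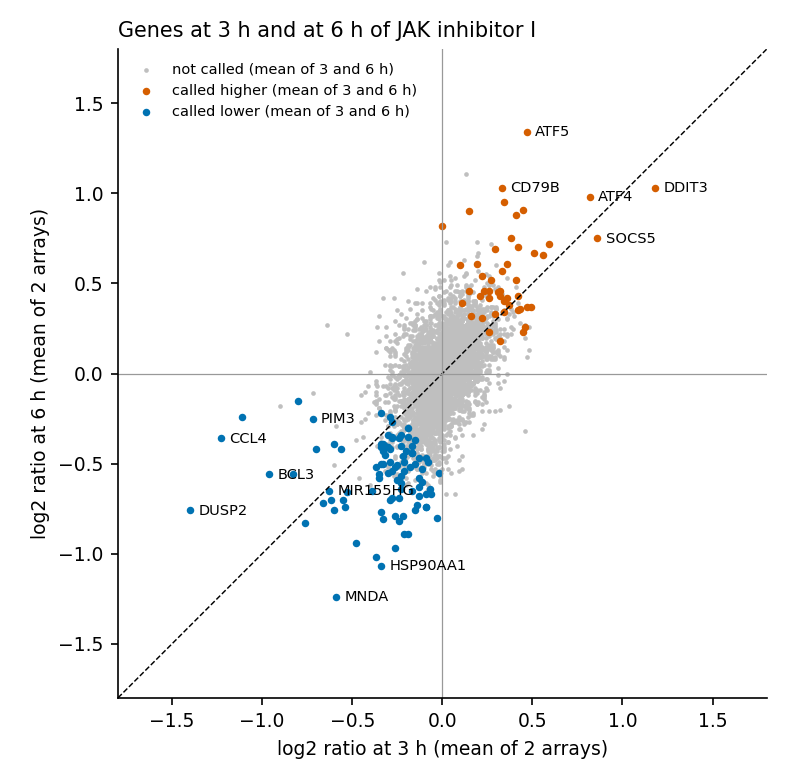
Each point is 1 of the 4264 genes measured on all 4 arrays, with its mean log2 ratio at 3 h (horizontal) and at 6 h (vertical); genes called in the mean of both times are coloured and the dashed line marks equal values. DUSP2 and CCL4 lie further from 0 at 3 h, and MNDA, HSP90AA1, ATF5 and CD79B further at 6 h, though 0 genes passed the test of the difference.

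IL-6 turns on the kinases that the inhibitor blocks, so the difference between the 2 treatments at 3 and 6 h was tested in the same fit. The inhibitor's ratio differed from that of IL-6 in 81 of 3531 genes (2.29%), higher in 26 and lower in 55 (1.56%). In the STAT3 list, 7 of 36 were lower with the inhibitor than with IL-6 (SPP1, BCL3, GPR183, GZMB, STAT3, CCND2 and BATF), and 0 were higher. Each treatment moved 2 of these genes by itself in opposite directions. BCL3 ran from 0.61 to 0.82 on the IL-6 arrays, which all lay above the inhibitor arrays, and differed by -1.49 ± 0.13 (adjusted p = 1.6e-06). GPR183 ran from 0.50 to 0.83 with IL-6 and differed by -1.47 ± 0.18 (adjusted p = 0.000116). By itself IL-6 changed 1.91% of genes and raised 1.58%. CD36, a fatty acid receptor outside the STAT3 list, averaged 0.52 with IL-6 (adjusted p = 0.026) and -0.57 ± 0.12 with the inhibitor (adjusted p = 0.0106).

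For other genes the difference came mainly from one side. SPP1 (osteopontin) ran from 0.85 to 2.17 with IL-6 and from -0.38 to -0.27 with the inhibitor, where it was not called (mean -0.31 ± 0.17, adjusted p = 0.416); the difference was -1.79 ± 0.24 (adjusted p = 0.000395). GZMB (granzyme B) differed by -1.23 ± 0.24 (adjusted p = 0.00803) and PTPN1 by -0.85 ± 0.14 (adjusted p = 0.00176), neither called with the inhibitor. SOCS3 averaged 0.51 with IL-6 (adjusted p = 0.0357) and 0.22 with the inhibitor, and its difference of -0.30 ± 0.18 did not pass (adjusted p = 0.48). Of the stress genes, 8 of 28 were higher with the inhibitor than with IL-6, among the 26 higher genes in all, and 0 of 28 were called with IL-6 itself. DDIT3 averaged 0.04 with IL-6 and differed by 1.06 ± 0.11 (adjusted p = 1.87e-05). CD79B, outside that list, had the largest difference (1.07 ± 0.17). ATF5 (1.04 ± 0.17), AARS1 (0.93 ± 0.18) and ATF4 (0.85 ± 0.19) were also higher, with adjusted p between 0.00139 and 0.0178. CCL3, CCL4 and MX1 were called lower with IL-6 as well, at -0.56, -0.51 and -0.39. The 2 treatments did not differ in them beyond the test's reach (adjusted p = 0.879, 0.378 and 0.96). With the run as a block 47 genes differed, and 39 to 88 when 1 array was left out; without the first 6 h inhibitor array there were 70 (15 higher, 55 lower), and without the second 88 (45 higher, 43 lower).

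Against the IkB super-repressor, which blocks NF-kB in the same line, the inhibitor's ratio differed in 14 of 4435 genes (0.316%), 4 higher (0.0902%) and 10 lower. The super-repressor by itself lowered 1 gene, NFKBIA (0.0221% of genes tested). The chemokine ratios lay furthest apart in CCL4. CCL4 read 0.34 and 1.13 at 3 and 6 h of the super-repressor and differed by -1.53 ± 0.18 (adjusted p = 0.000346). CCL3 read 0.48 and 0.64 there and differed by -1.04 ± 0.19 (adjusted p = 0.0165). For both, each super-repressor array lay above each inhibitor array. DHRS9 (-1.16 ± 0.16), MNDA (-1.12 ± 0.20), DUSP2 (-0.94 ± 0.16), PHLDA1, HSP90AA1, PNP, SQLE and SRSF7, a splicing factor, were the other genes lower with the inhibitor. Those higher were NFKBIA (1.05 ± 0.22), ATF5 (1.00 ± 0.21), DDIT3 (0.97 ± 0.14) and SOCS5 (0.76 ± 0.14). NFKBIA read -1.10 and -1.07 with the super-repressor, a form of the protein this gene encodes. Its probes may also detect the introduced construct, which would add to the treated channel, and this was not tested. BCL3, lowered by the inhibitor, was at -0.12 and -0.34 with the super-repressor, a difference of -0.53 ± 0.16 that did not pass (adjusted p = 0.396). There is 1 super-repressor array per time, so its spread is taken from other arrays; the arrays of the contrast fitted alone gave 0 calls, the run as a block 9, and leaving out 1 inhibitor array 4 to 19 (4 without the second 3 h replicate, 8 without the first 6 h replicate).

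STAT3 siRNA was measured at later times, so its values stand beside those of the inhibitor without a test of the difference. Of 145 inhibitor calls tested in the siRNA arrays, 18 were called there in the same direction, 2 higher and 16 lower. These are 12.2% of the inhibitor's 147 calls and 11.5% of the siRNA's 156. Of all genes tested with the siRNA, 3.59% were called, 1.33% higher and 2.25% lower. A further 2, CCL3 and CCL4, were called in opposite directions. STAT3, the siRNA's own target and 1 of the 18 shared calls, averaged -1.59 with the siRNA (adjusted p = 4.54e-05). GPR183 read -0.44 and -0.56 at 24 h and -1.02 and -0.91 at 48 h of siRNA, close in size to its fall with the inhibitor. DHRS9 averaged -0.82 (adjusted p = 6.97e-05) and MNDA -0.48 (adjusted p = 0.0294), and SAMSN1, an adaptor that restrains B cell activation, averaged -0.37 (adjusted p = 0.046) beside -0.50 ± 0.10 (adjusted p = 0.00943) with the inhibitor. CCL4 rose with the siRNA, at 0.43 and 0.47 at 24 h and 1.28 and 1.02 at 48 h (adjusted p = 0.000421). BCL3 (-0.15) and DUSP2 (0.01), among the strongest falls with the inhibitor, were not called with the siRNA, and of 28 stress genes 0 were called. Both experiments used the same dye order, and the part of a gene's dye bias in these shared signs was not tested.

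**Figure D5:**
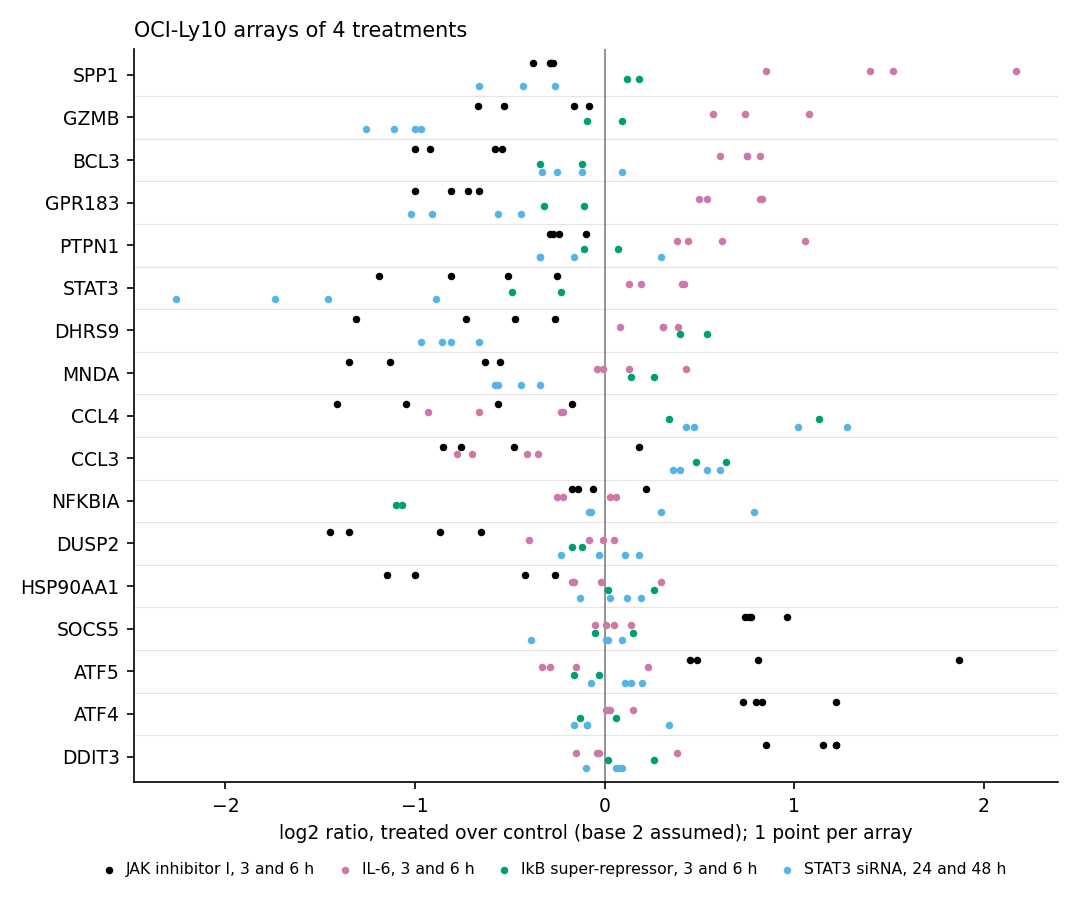
The log2 ratio of treated over control (horizontal axis) is plotted for 17 genes in OCI-Ly10, with 1 point per array and a colour per treatment: JAK inhibitor I, IL-6 and the IkB super-repressor at 3 and 6 h, and STAT3 siRNA at 24 and 48 h. BCL3 and GPR183 lie on opposite sides of 0 with IL-6 and the inhibitor, CCL4 is below 0 with both and above 0 with the other 2 treatments, and every inhibitor point of DDIT3, ATF4 and SOCS5 lies above every point of the other 3 treatments, which run from -0.39 (SOCS5, siRNA) to 0.38 (DDIT3, IL-6).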

How the data were processed

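Total RNA of OCI-Ly10 and OCI-Ly3 cells was measured on 2-colour arrays of 15246 probes. The deposited values are log ratios of Cy5 (treated) over Cy3 (control), read as log2; the authors had centred the arrays, while the logarithm's base, the background correction, the spot filter and the normalization method are not stated in the labels or file. Each array was centred on its median, and 4604 genes were formed as means over the 10169 probes that carry 1 symbol; 5073 probes with no listed symbol and 4 with several were left out. Of all values, 12.6% were blank. With limma 3.58.1 in R 4.3.3, 1 mean per experiment and time was fitted over all 40 arrays, 19 of them of the line OCI-Ly3 (IL-10 or super-repressor), which share in the estimate of the spread and in the mean of the other 5 experiments, and contrasts were tested with Benjamini-Hochberg adjustment (threshold 0.05) over all genes tested; a bare value in parentheses after a mean is this adjusted p. A gene was tested in the mean of both times with 3 or more of the 4 arrays. The fit was tested on simulated data. Variation of the control RNA does not enter such a test. The labels do not state separate cultures for replicates or separate control RNA, so the p-values cover the spread between arrays, which may be technical. The number of arrays limits the precision, and channel intensities were not used here.

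Genes were named by rule: the 12 highest and 12 lowest calls with 1 sign, up to 3 calls per list, the genes leading each contrast, and 23 genes of the pathway. Other genes complete a count and were chosen after their values were seen. The members, the 26 gene lists and the rule were chosen with earlier results of these data known. Alternatives were the contrast's arrays alone, replicate and identifier-run blocks, scaling, no centring, probe medians, filters, robust moderation, and leaving out each array. Runs of array identifiers (a gap above 50 starts a new one; 12 in all) are not described by the labels. Promoter and microRNA sequences came from RefSeq tables.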

Additional observations from a re-analysis of the deposited data

Results flagged for a closer look

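Among 73 named genes, 7 had 1 of the 4 inhibitor arrays far from the other 3, by Dixon's ratio of gap to range above its critical value. Chance alone gives this in about 1 in 20 groups, and the 4 arrays span 2 times, so a change with time can also set an array apart. The first 6 h replicate was the far array in 3 of the 7: it was highest for PLK1 (1.61) and SLC3A2 (1.40) and lowest for SQLE (-0.92). The second 6 h replicate was highest for JAK2 (0.47) and lowest for SCD (-0.73) and SOCS1 (-0.48). For SOCS5 the second 3 h replicate was highest (0.96), with the other 3 arrays within 0.74 to 0.77.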

How the results depend on the processing

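Counts moved by over 1.5 times under several alternatives. Fitted on the arrays of the contrast alone, the mean of both times had 12 calls, 3 h had 23, 6 h had 0 and the difference from the super-repressor had 0. With arrays scaled, these counts were 241 (96 higher, 145 lower), 74 (32 higher, 42 lower), 69 and 65, the change from 3 to 6 h had 3 and the difference from IL-6 had 195. The identifier run as a random block gave 77 calls for the mean, 47 against IL-6 and 9 against the super-repressor. Replicate 1 arrays only gave 47 calls (26 higher, 21 lower) and replicate 2 arrays only gave 37 (7 higher, 30 lower), both chosen after seeing the data. Values as deposited turned the difference from the super-repressor to 2 higher and 10 lower. Leaving out 1 array in turn gave 45 to 161 calls for the mean, 4 to 4 at 3 h, 89 to 91 at 6 h, 0 to 9 for the change from 3 to 6 h (9 without the second 6 h replicate), 39 to 88 against IL-6 and 4 to 19 against the super-repressor; where 1 array of a time remained, it was assumed to vary like the other groups. Subtracting the mean of the other 5 experiments, which removes a dye bias common to all, gave 196 calls of 3042 genes, 104 of them among the 147. The cause of these shifts was not tested. The replicate number as a block gave 149 calls, 144 of them shared with the 147, 88 against IL-6 and 0 for the change from 3 to 6 h. The replicate differences at 3 h and 6 h correlated at r of 0.217, and with only 2 numbers this does not establish a pairing. No named gene's called mean changed sign under an alternative; of the 147 calls, 1 changed sign with probe medians and 1 after the other experiments were subtracted.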
